A study of Bos taurus with 4 samples.

Results

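The genes of central carbon metabolism, from the uptake of glucose to the tricarboxylic acid (TCA) cycle, were examined in inner cell masses (ICMs) of bovine day 9 embryos cultured in naïve human stem cell medium (NHSM) or in synthetic oviductal fluid (SOF). A list of 56 genes of glycolysis, lactate, pentose phosphate, pyruvate dehydrogenase and TCA cycle metabolism was taken, and a gene was a member if at least 1 probe of the array was named for it. This gave 47 genes with 140 probes, of 12545 named genes on the array. *GAPDH*, *ENO1*, *PKM*, *PDK4*, *DLD*, *PGLS*, *RPIA*, *ACO1* and *SUCLA2* were not measured here. Each gene was represented by its brightest probe, and a probe counted as above background when it exceeded the 95th percentile of the control spots of its channel. By this measure 46 of the 47 genes were above background in all 4 pools of at least 1 medium. The exception was *DLST*, the core subunit of the oxoglutarate dehydrogenase complex, with 3 NHSM and 2 SOF pools above it. None of the members' spots was saturated.

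Glycolysis splits glucose into pyruvate, which is either reduced to lactate by lactate dehydrogenase or carried into the mitochondrion, where the pyruvate dehydrogenase complex turns it into acetyl-CoA for the TCA cycle. The pentose phosphate pathway branches off after the first step of glycolysis and supplies NADPH and ribose. In mammalian preimplantation development the cleaving embryo relies mainly on pyruvate and lactate, and the use of glucose rises towards the blastocyst stage.

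Embryos were produced *in vitro* from abattoir oocytes and semen of a single bull, and all were kept in SOF until day 4. They were then moved either to fresh SOF or to NHSM, and ICMs were cut away from the trophectoderm (TE) with needles on day 9 and pooled in groups of 11 to 24. The 4 NHSM and 4 SOF pools were hybridised in pairs on 4 two-colour arrays, with the NHSM pool in Cy3 on arrays 1 and 3 and in Cy5 on arrays 2 and 4. NHSM holds KO DMEM with 20% knock-out serum replacement, bovine insulin, glutamine, the growth factors TGFβ1 (1 ng/ml), bFGF (8 ng/ml) and LIF (20 ng/ml), and inhibitors of MEK (PD0325901), GSK3 (CHIR99021), PKC (Go6983), JNK (SP600125) and p38 (SB203580). SOF is the standard salt-based medium for bovine embryos. Lactate, pyruvate, glutamine, amino acids and BSA are among its listed ingredients, so glutamine was present in both media. Glucose is not among them, and the glucose content of NHSM is not stated in the sources used here. The media differ in their basic formulation as well as in inhibitors and growth factors, so the components cannot be told apart. Needle dissection can leave TE cells on an ICM, and embryos were of mixed sex, with the share of each sex in a pool not given in the sources used here.

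The identity of the samples was checked first. *NANOG*, *SOX2*, *GATA6*, the TE marker *GATA3* and the granulosa marker *FSHR* were above background in all 8 pools. The hypoblast marker *SOX17* was above it in 3 NHSM and 2 SOF pools. The granulosa marker *CYP19A1* was above it in 4 NHSM and 3 SOF pools. *POU5F1* and *CDX2* had no named probe. All 5 measured genes of the ICM and epiblast list had lower values in NHSM, and 3 passed the test (*SOX2* -0.32, *PRDM14* -0.32 and *NANOG* -0.31 as log2 ratios). Their summed intensity ran from 4415 to 5551 in NHSM and from 5788 to 6404 in SOF, without overlap. For hypoblast markers 3 of 13 fell (*LAMB1*, *SPARC* and *GATA6*), with sums of 19880 to 27061 in NHSM and 25263 to 29508 in SOF, and the NHSM pool was the lower on all 4 arrays. For TE markers 2 of 18 rose and 3 fell, with sums of 125515 to 173380 in NHSM and 139540 to 187794 in SOF, and the NHSM pool was higher on 1 array. Of 9 cumulus and granulosa markers 2 rose and 1 fell (*HSD3B1* 0.88, *FSHR* 0.44, *AMH* -0.32), with sums of 53655 to 67470 and 52145 to 90676. The ratios of *AMH* on arrays 1 to 4 were -0.94, 0.24, -1.11 and 0.55, opposite in sign between the dye orientations. Its pools overlapped. *AMH* and *STAR* had the highest levels of this list and weigh most in its sums. Over all named genes 13.2% passed, and 19.1% of those above background in all pools of a medium. The part of these marker shifts in the results on metabolism was not tested. In pooled tissue fewer cells of a type cannot be told apart from less RNA per cell.

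Ratios are log2 of NHSM over SOF. Per-array ratios are given in the order of arrays 1 to 4. A gene passed when its adjusted p was below 0.05 in limma with Benjamini-Hochberg adjustment over the 12545 genes, and it was called when it was also changed at least 1.5-fold. Single probes labelled unequally with the 2 dyes, so the ratios of 1 gene often differed between arrays 1 and 3 and arrays 2 and 4. The mean dye effect of each probe was removed in the fit. Across the 47 members the ratios correlated with r of 0.89 and 0.86 between arrays of the same orientation and 0.38 to 0.52 between arrays of opposite orientation. Over all probes these correlations were 0.56 and 0.59 for the same orientation and 0.06 to 0.19 for opposite ones. They are descriptions across genes, and the arrays compared share dye and probe effects.

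Of the 47 members, 10 passed, with 7 higher and 3 lower in NHSM. *LDHA*, *TPI1*, *GPI*, *IDH1*, *PDHB*, *DLAT* and *SLC16A1* rose, and *TKTL1*, *SLC2A3* and *SLC2A1* fell. That is 21.3% of members, against 13.2% of all named genes (6.56% higher and 6.67% lower) and 19.1% of genes above background in all pools of a medium. Of the members 5 were called at 1.5-fold (3 higher and 2 lower), against 2.58% of all genes (1.23% higher and 1.36% lower). The median ratio was 0.04 over the members and -0.02 over all genes, with 29 positive and 18 negative values. Ratios had the same sign on all 4 arrays for 18 members, against 25.3% of all genes, and the levels of the pools did not overlap for 10, against 11.2%. The shares for called genes, sign and overlap are over all named genes. Of these 8484 of 12545 were above background in all pools of a medium, against 46 of 47 members, so the sets are unlike. The share that passed was close to that of other genes above background, and the 5 called members were *LDHA*, *TPI1*, *GPI*, *TKTL1* and *SLC2A3*.

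**Figure D1:**
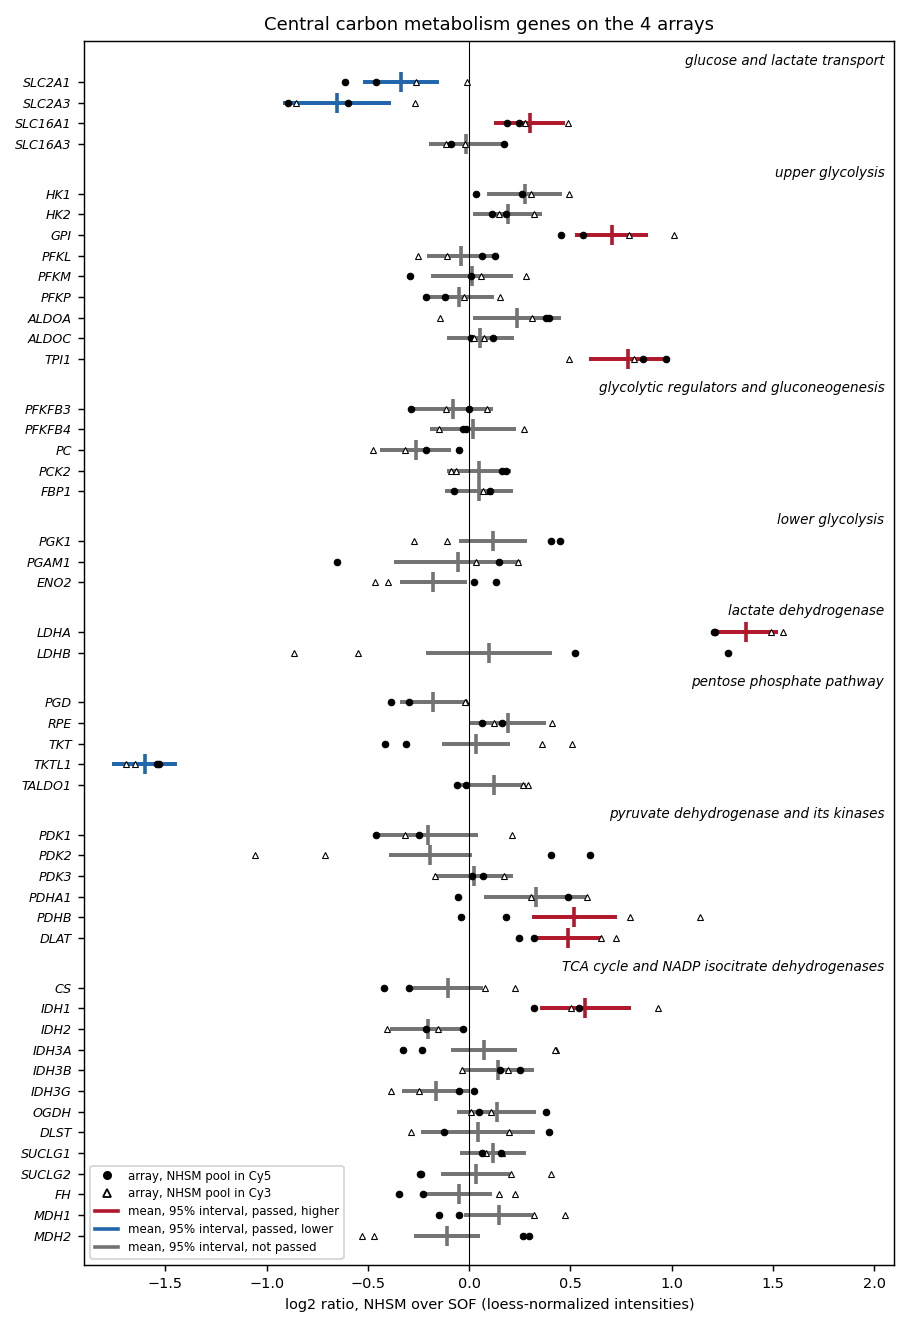
Log2 ratio of NHSM over SOF (x axis) for the 47 members, grouped by role. Circles are arrays with the NHSM pool in Cy5, triangles arrays with it in Cy3, ticks and bars the mean and its 95% confidence interval from limma (n = 4 arrays), in red (higher) or blue (lower) for the 10 members that passed. *LDHA* at 1.37 and *TKTL1* at -1.60 stand at the ends, while *LDHB*, *PDK2* and *PDHB* show how far single probes split by dye.

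The first step is transport over the plasma membrane. Of its 4 genes 2 fell, 1 rose and 1 did not pass. *SLC2A3*, the high-affinity glucose transporter GLUT3, had log2 levels of 13.99, 13.88, 13.75 and 13.96 in the NHSM pools and 14.26, 14.78, 14.60 and 14.56 in the SOF pools. All NHSM pools lay below all SOF pools. The ratios were -0.27, -0.89, -0.86 and -0.60, with a mean of -0.65 ± 0.11 (SE, n = 4), which is 1.57-fold lower in NHSM (adjusted p = 0.0107).

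*SLC2A1*, the widely expressed glucose transporter GLUT1, had ratios of -0.01, -0.61, -0.26 and -0.46 and a mean of -0.34 ± 0.07 (SE, adjusted p = 0.0284). On array 1 both pools were nearly level, at 11.26 in NHSM and 11.27 in SOF. These were the highest NHSM and the lowest SOF pool, so the levels did not overlap, but only narrowly. The mean levels of *SLC2A1* were 11.04 in NHSM (SD 0.15) and 11.38 in SOF (SD 0.13). Without array 2 the adjusted p was 0.169, without array 3 0.0555 and without array 4 0.0877, and its other 2 probes did not pass.

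*SLC16A1*, the monocarboxylate transporter MCT1 that carries lactate and pyruvate, rose. Its levels were 11.63 to 11.69 in NHSM and 11.16 to 11.46 in SOF, without overlap. Ratios of 0.49, 0.18, 0.27 and 0.25 gave a mean of 0.30 ± 0.07 (SE, adjusted p = 0.0341), or 1.23-fold. It no longer passed without array 1 (0.25, adjusted p = 0.0684), array 2 (0.31, 0.141) or array 4 (0.28, 0.186), although all 3 of its probes passed among all probes, at 0.30, 0.47 and 0.35. *SLC16A3*, the lactate exporter MCT4, had a ratio of -0.01 ± 0.07.

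In the upper part of glycolysis, from hexokinase to triose phosphate isomerase, 2 of 9 genes rose and 7 did not pass. *GPI*, which turns glucose 6-phosphate into fructose 6-phosphate, had levels of 11.76, 11.71, 11.64 and 11.67 in NHSM and 10.75, 11.25, 10.85 and 11.11 in SOF. The NHSM pools were tightly grouped above the SOF pools. The ratios of 1.01, 0.45, 0.79 and 0.56 had a mean of 0.70 ± 0.07 (SE), or 1.63-fold (adjusted p = 0.00221).

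*TPI1*, which interconverts the 2 triose phosphates at the end of this part, had levels of 10.86, 11.21, 10.82 and 10.93 in NHSM and 10.05, 10.23, 10.33 and 10.07 in SOF. Here too the groups did not overlap. The ratios were 0.81, 0.97, 0.49 and 0.86, with a mean of 0.78 ± 0.08 (SE), or 1.72-fold (adjusted p = 0.00213). All 3 of its probes passed, at 0.78, 0.78 and 0.76.

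The other 7 genes did not pass. *HK1* and *HK2*, the hexokinases that trap glucose in the cell, had positive ratios on all 4 arrays, at means of 0.27 (adjusted p = 0.0580) and 0.19 (0.129). *HK1* passed under 6 of 13 alternatives. The 3 phosphofructokinase genes, which code for the committed step, lay at -0.04 (*PFKL*), 0.01 (*PFKM*) and -0.05 (*PFKP*). *PFKP* was the lowest of this part, with ratios of -0.02, -0.12, 0.15 and -0.21 (SE 0.07, adjusted p = 0.745). The 95% confidence intervals of the 3 genes together ran from -0.21 to 0.21. The aldolases *ALDOA* (0.23) and *ALDOC* (0.06) did not pass by their brightest probes.

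None of the 5 regulators and enzymes of the reverse direction passed. *PC*, pyruvate carboxylase, which makes oxaloacetate from pyruvate, had ratios of -0.32, -0.21, -0.47 and -0.05, with a mean of -0.26 ± 0.07 (SE, adjusted p = 0.0522). It passed under 4 of 13 alternatives, which were the deposited ratios (adjusted p = 0.0200), a variance trend (0.0319), dim probes left out (0.0357) and leaving out array 1 (-0.30, 0.0313). *FBP1*, the gluconeogenic fructose bisphosphatase, was the highest, with ratios of 0.10, 0.10, 0.07 and -0.07 (mean 0.05, SE 0.07, adjusted p = 0.750). *PFKFB3* (-0.08) and *PFKFB4* (0.02), which set the level of the activator fructose 2,6-bisphosphate, and *PCK2* (0.05), the mitochondrial phosphoenolpyruvate carboxykinase, lay between them.

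Lower glycolysis was thinly covered, since *GAPDH*, *ENO1* and *PKM* had no named probe, and none of its 3 measured genes passed. *PGK1*, the first ATP-forming step, had ratios of -0.27, 0.45, -0.11 and 0.41 (mean 0.12, SE 0.07, adjusted p = 0.351). *ENO2*, the gamma enolase, had ratios of -0.46, 0.13, -0.40 and 0.02 (mean -0.18, SE 0.07, adjusted p = 0.140). In both genes the sign followed the dye orientation. *PGAM1*, a phosphoglycerate mutase, had a mean of -0.06 with values from -0.65 to 0.24.

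*LDHA*, the subunit of lactate dehydrogenase that prevails in glycolytic tissues, had the highest ratio of all members. Its log2 levels were 12.49, 12.42, 12.65 and 12.40 in the NHSM pools and 11.00, 11.21, 11.10 and 11.19 in the SOF pools. The lowest NHSM pool lay far above the highest SOF pool. The ratios of 1.49, 1.21, 1.55 and 1.21 gave a mean of 1.37 ± 0.06 (SE), with a 95% confidence interval of 1.21 to 1.52. This is 2.58-fold higher in NHSM (adjusted p = 3.67e-04). The other 2 probes of *LDHA* had ratios of 1.39 and 1.23 and passed as well.

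*LDHB*, the subunit that prevails in oxidative tissues such as the heart, was not resolved by its brightest probe. That probe had ratios of -0.55, 1.28, -0.87 and 0.52, opposite in sign between the dye orientations, with a dye effect of 0.80 and a mean of 0.10 ± 0.13 (SE, adjusted p = 0.735). The other 3 probes were all above background in all 8 pools, had dye effects between -0.04 and 0.08, and pointed down. The second brightest had ratios of -0.83, -0.34, -0.18 and -0.37 (mean -0.43, adjusted p = 0.0503). The third had ratios of -0.45, -0.44, -0.36 and -0.46 (mean -0.43, adjusted p = 0.00911), and the fourth -0.59, -0.43, -0.17 and -0.47 (mean -0.41, adjusted p = 0.0260). These adjusted p-values were taken over all 43653 probes. The 3 probes were therefore negative on every array, while the probe chosen by brightness was not, and with the mean of all 4 probes *LDHB* passed at -0.29 (adjusted p = 0.0281). The separate readings were looked at after the values of the brightest probe were known.

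**Figure D2:**
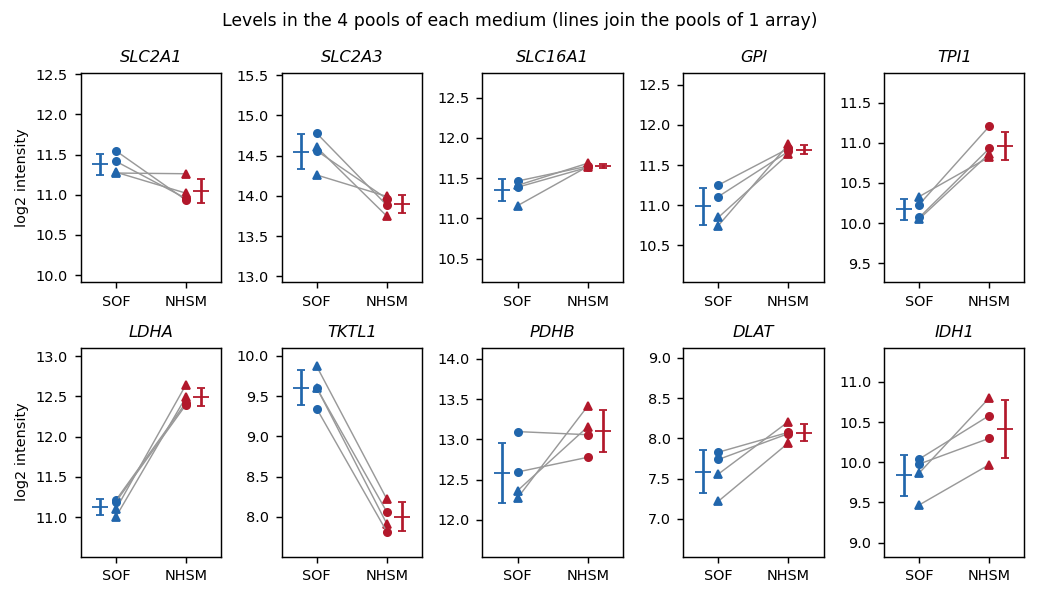
Log2 intensity (y axis) of the 10 members that passed, in the 4 SOF pools (blue) and 4 NHSM pools (red); lines join the pools of 1 array, circles are arrays with the NHSM pool in Cy5 and triangles those with it in Cy3, and the bars beside them are mean ± SD. The y axes all span the same range, so that the slopes can be compared, and *PDHB* and *IDH1* are the 2 genes whose pools overlap.

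In the pentose phosphate pathway 1 of 5 genes fell and 4 did not pass. *TKTL1*, a transketolase-like gene, had the lowest ratio of all members. Its log2 levels were 7.91, 8.06, 8.22 and 7.81 in NHSM and 9.61, 9.60, 9.87 and 9.35 in SOF. The pools were separated by more than 1 unit. The ratios of -1.69, -1.54, -1.65 and -1.53 gave a mean of -1.60 ± 0.06 (SE), with a 95% confidence interval of -1.75 to -1.45, or 3.04-fold lower in NHSM (adjusted p = 3.67e-04). A second probe had a ratio of -1.11 and passed, and the third was above background in none of the pools.

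*TKT*, the transketolase itself, had ratios of 0.51, -0.31, 0.36 and -0.42 and a mean of 0.03 ± 0.07 (SE, 95% confidence interval -0.13 to 0.19). *RPE*, ribulose phosphate epimerase, was the highest of this pathway, with ratios of 0.12, 0.16, 0.41 and 0.06 (mean 0.19, SE 0.08, adjusted p = 0.171). *PGD*, the second NADPH-forming dehydrogenase of the oxidative branch, had negative ratios on all 4 arrays (mean -0.18, adjusted p = 0.129), and *TALDO1*, transaldolase, had a mean of 0.12.

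*TKTL1* lies on the X chromosome in the RefSeq annotation of ARS-UCD2.0, together with *PGK1*, *PDHA1*, *PDK3* and *IDH3G*. The other 4 X-linked members did not pass, at 0.12, 0.33, 0.02 and -0.17. Of the 416 X-linked genes on the array 13.9% passed, against 13.2% of all named genes, and the median ratio of the X-linked genes was -0.02. These shares have no fold cut. The authors counted probes changed at least 1.5-fold and found a higher share on the X chromosome than on most others.

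The pyruvate dehydrogenase complex forms the gate to the TCA cycle. *PDHB*, the beta subunit of its first component, and *DLAT*, its acetyltransferase core, rose, while *PDHA1* and the 3 measured kinases did not pass. *DLAT* had levels of 7.94, 8.06, 8.21 and 8.08 in NHSM and 7.22, 7.74, 7.56 and 7.83 in SOF, without overlap. The ratios were 0.73, 0.32, 0.65 and 0.25, with a mean of 0.49 ± 0.06 (SE), or 1.40-fold (adjusted p = 0.00511). This gene has 1 probe.

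*PDHB* had ratios of 1.14, 0.18, 0.79 and -0.04 and a mean of 0.52 ± 0.08 (SE), or 1.43-fold (adjusted p = 0.00956). The mean was 0.97 with the NHSM pool in Cy3 and 0.07 with it in Cy5, and the pools of the 2 media overlapped, at 12.78 to 13.41 in NHSM and 12.27 to 13.10 in SOF. The second probe of *PDHB* passed too, at 0.51. *PDHA1*, the alpha subunit, had ratios of 0.58, -0.06, 0.31 and 0.49 (mean 0.33, SE 0.10, adjusted p = 0.0885).

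The pyruvate dehydrogenase kinases switch the complex off by phosphorylation. *PDK1* was the lowest gene of this group, with ratios of -0.32, -0.46, 0.21 and -0.25 (mean -0.20, SE 0.10, adjusted p = 0.275). Only array 3 had a positive ratio, and without it *PDK1* passed at -0.34 (adjusted p = 0.0233). Without array 1 the ratio was -0.07 (adjusted p = 0.694), and *PDK1* passed under only 1 of 13 alternatives. *PDK2*, at -0.19, was split by dye from -1.06 to 0.60, and *PDK3* lay at 0.02.

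Of the 13 measured genes of the TCA cycle and the NADP-dependent isocitrate dehydrogenases 1 rose and 12 did not pass. *IDH1*, the cytosolic NADP-dependent isocitrate dehydrogenase, had levels of 9.97, 10.30, 10.80 and 10.58 in NHSM and 9.47, 9.98, 9.87 and 10.04 in SOF. The groups overlapped, but within each array the NHSM pool was higher. The ratios of 0.50, 0.32, 0.93 and 0.54 had a mean of 0.57 ± 0.09 (SE), or 1.49-fold (adjusted p = 0.00876). *IDH1* does not belong to the mitochondrial cycle itself.

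*IDH2*, its mitochondrial NADP-dependent counterpart, had the lowest ratio of the group, with values of -0.41, -0.21, -0.15 and -0.03 (mean -0.20, SE 0.08, adjusted p = 0.149). The other 11 genes lay between -0.17 (*IDH3G*) and 0.15 (*MDH1*). Among them were *CS* (-0.10), the entry enzyme of the cycle, the subunits *IDH3A* (0.07) and *IDH3B* (0.14) of the NAD-dependent isocitrate dehydrogenase, *OGDH* (0.14) and *DLST* (0.04) of the oxoglutarate dehydrogenase complex, the succinyl-CoA ligase subunits *SUCLG1* (0.12) and *SUCLG2* (0.03), fumarase *FH* (-0.05) and the mitochondrial malate dehydrogenase *MDH2* (-0.11).

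The choice of probe bore on several members beside *LDHB*. Among 44 members with more than 1 probe, 7 had a passing probe only among the dimmer ones. For *ALDOA* (0.41), *ALDOC* (0.54), *PGK1* (0.36), *RPE* (0.43) and *MDH1* (0.32, the cytosolic malate dehydrogenase) the dimmer probe had the same sign as the brightest. For *CS* (0.49 against -0.10) and *LDHB* it had the opposite sign. Probes also disagreed for some members without a passing probe. The brightest probe of *MDH2* was split by dye (-0.47, 0.29, -0.53 and 0.26). The other 3 *MDH2* probes above background had the opposite sign to the mean of that probe, -0.11. For *PDK2* the other probe also had the opposite sign. Of the 10 members that passed, 7 had at least 1 further probe that passed in the same direction, *DLAT* and *IDH1* have a single probe, and for *SLC2A1* the other 2 probes were at -0.18 and 0.02. For *SLC2A3* the second probe passed at -0.58, whereas the other 3 did not pass, at -0.05, -0.02 and 0.07, and the first 2 of these were above background in all pools of a medium. The mean of the probes of *SLC2A3* above background was -0.33 (adjusted p = 0.0190). For *GPI* the only further probe that passed, at 0.32, was not above background in all pools of either medium, and the mean of its 3 probes was 0.38. In all, 28 of the 140 probes passed, against 8.43% of all gene probes, and 26 of the 100 that were above background in all pools of a medium, against 17.1%. The genes were chosen for this display after their values were seen, and probe sequences were not used here, so signal from close gene copies was not tested.

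**Figure D3:**
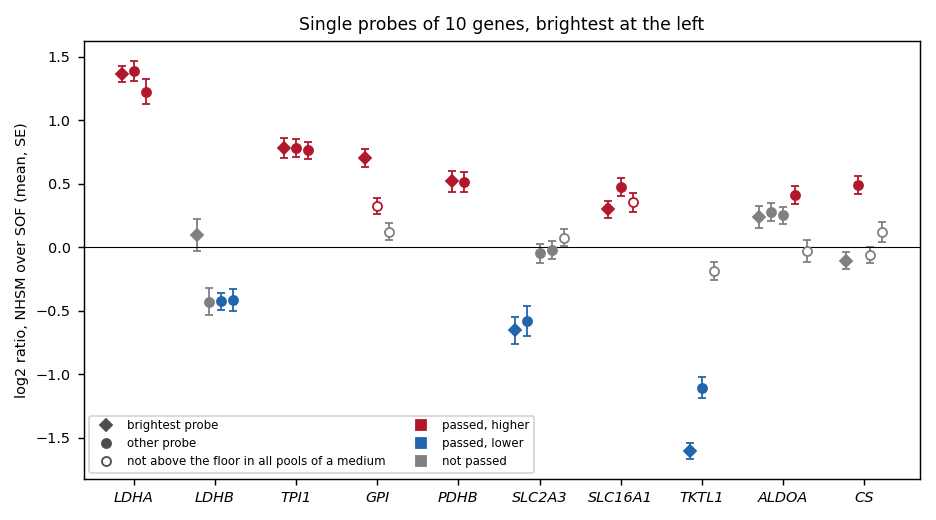
Log2 ratio of NHSM over SOF (y axis, mean ± SE from limma, n = 4 arrays) of every probe of 10 members, with the brightest probe (diamond) at the left of each gene; open circles mark probes that were not above background in all pools of either medium. The probes of *LDHA* and *TPI1* lie together, whereas the brightest probe of *LDHB* lies at 0.10 and the other 3 at -0.43 to -0.41.

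Further genes of carbon metabolism that are not members were taken from a second list. Of 53 such genes 37 were measured. The share that passed was 24.3%, against 13.2% of all named genes and 19.1% of genes above background in all pools of a medium. Of the 37 genes 5 rose, 4 fell and 28 did not pass. The median was -0.04. The largest ratios among those that passed were those of *ME1*, the cytosolic malic enzyme that yields NADPH and pyruvate, at 0.76 ± 0.09 (SE, adjusted p = 0.00306), *MPC1*, a subunit of the mitochondrial pyruvate carrier, at 0.60 ± 0.10 (adjusted p = 0.0119), and *ACLY*, which makes cytosolic acetyl-CoA from citrate, at -0.51 ± 0.06 (adjusted p = 0.00413). Each had the same sign on all 4 arrays. *MPC2*, the partner of *MPC1*, was singled out after its value was seen and had a ratio of 0.47 ± 0.07 (adjusted p = 0.00592).

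Targets of hypoxia-inducible factor are found among the members that rose, those that fell and those that did not pass. The part of this factor in their ratios was not tested. Of 17 measured genes of a list of this factor and its other targets 1 rose, 3 fell and 13 did not pass, with a median of -0.02. The share that passed was 23.5%, against 13.2% of all named genes and 19.1% of genes above background in all pools of a medium. *NDRG1* rose by 0.72 ± 0.09 (adjusted p = 0.00479), and *KDM3A* (-0.40) and *BNIP3L* (-0.34) were the lowest of those that fell. Of 5 genes of the glucose-sensing Mondo and MLX factors and their targets, *ARRDC4* rose by 1.36 ± 0.07 (adjusted p = 4.27e-04), with ratios of 1.35, 1.45, 1.15 and 1.49. *TXNIP*, a well-known target of the same factors, had a ratio of -0.03, and *MLX*, *MLXIP* and *MLXIPL* lay between -0.08 and -0.04.

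The 10 members that passed did not all rest equally on the processing. *LDHA*, *TPI1*, *GPI* and *TKTL1* passed under all 13 alternatives tried, with ranges of 1.33 to 1.45, 0.70 to 0.87, 0.38 to 0.80 and -1.68 to -0.97. *IDH1* and *SLC2A3* passed under 12, *DLAT* under 11, *PDHB* under 10, *SLC16A1* under 8 and *SLC2A1* under 5, and none of the 10 changed direction.

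**Figure D4:**
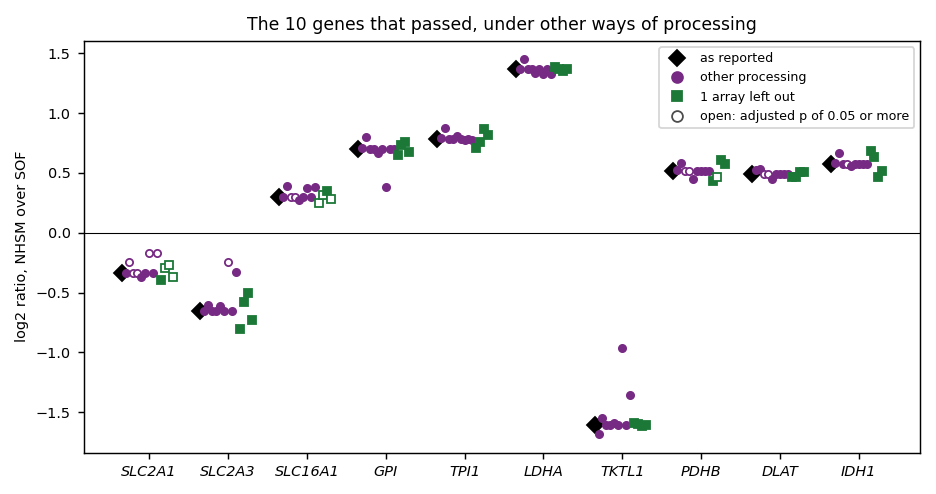
Log2 ratio of NHSM over SOF (y axis) of the 10 members that passed, as reported (black diamonds), with other processing (purple circles) and with 1 array left out (green squares); open symbols have an adjusted p of 0.05 or more in limma. *LDHA* stays between 1.33 and 1.45 and *TKTL1* between -1.68 and -0.97, while *SLC2A1* did not pass under 8 of 13 alternatives.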

How the data were processed

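Total RNA of 8 ICM pools was amplified and hybridised on 4 two-colour bovine arrays. The deposited scanner files hold the spot intensity of each channel from Imagene 8.0, not normalized. The authors also deposited for every spot the Cy5 over Cy3 log2 ratio, after loess and dye-bias correction, used here as an alternative only. In limma 3.58.1 (R 4.3.3) loess was applied per array to ratios of mean spot intensity on the log2 scale, without background correction and with 1567 control spots at weight 0. The ratios were fitted with a dye term and a medium term over 43653 gene probes or over the brightest probe of 12545 named genes (2 residual and 4.90 prior degrees of freedom for genes). Pools on 1 array are paired by its ratio. The number of arrays limits the precision. The methods describe the pools as independent. The SEs and p-values combine the spread left after the dye and medium terms with a variance drawn from all genes. They refer to these pools only.

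Of 27952 named probes, 25823 carry a current RefSeq symbol, 1831 were renamed by synonym and 298 were left as on the array. Members and lists were chosen with earlier results of these data known. Values are given in full for members that passed and for the highest and lowest of each role. For each other list they are given for at most 3 genes that passed. The additions to this are *MPC2* and, as genes that did not pass, *TXNIP*, *MLX*, *MLXIP* and *MLXIPL*. The script was tested on simulated data. Alternatives changed the background correction, normalization, dye term, pairing, source of values, variance model, probe choice, filter on dim probes and the arrays used.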

Additional observations from a re-analysis of the deposited data

Results flagged for a closer look

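Of 47 members, 1 had an array far from the other 3. The log2 ratio of *ALDOA* by its brightest probe was -0.14 on array 3, against 0.31 to 0.39 on the others, and its adjusted p over all genes was 0.147 in limma. Without array 3 *ALDOA* passed, but that array was picked for its distance, so leaving it out was bound to narrow the spread. Without array 1, 2 or 4 *ALDOA* did not pass (adjusted p = 0.402, 0.384 and 0.372). On array 3 a dimmer probe of the gene had a ratio of 0.34. Chance alone would single out about 1 in 20 groups of 4.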

How the results depend on the processing

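The count of 10 members that passed stayed at 10 with normexp, 9 with median centring, 12 with a variance trend, 12 with dim probes left out and 12 with the mean of all probes, and was 15 with the authors' deposited ratios (10 of them shared). It was 6 without the dye term, 5 without the array as a replicate block (separate channels), and 19 of 46 with the mean of the probes above background. That last choice was made after the probes of *LDHB* had been seen, and under it 25.3% of all genes passed. Leaving out 1 array gave 8 to 12. The count at 1.5-fold was 3 with the mean of all probes, and 5 to 6 without 1 array. The median ratio of the members was 0.094 with median centring, and 0.04 to 0.07 without 1 array. *LDHB* turned to -0.29 with either mean of probes and ranged from -0.093 (without array 2) to 0.29 without 1 array. Without the dye term *SLC2A1*, *SLC16A1*, *PDHB* and *DLAT* were lost, and without the block *IDH1* as well. *PDHB* was lost without array 2 (adjusted p = 0.0546), and *SLC2A3* with the mean of all probes (-0.25, adjusted p = 0.0548). Among all genes 823 rose and 837 fell, against 884 and 468 with median centring and 815 and 564 with the mean of all probes. The median of lower glycolysis, -0.06, became 0.02 with median centring and ran from -0.15 (without array 4) to 0.11 (without array 2). The causes were not tested. The no-block fit uses the same arrays, and the labels give the 2 dye orientations different replicate numbers.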
